A study of Arabidopsis thaliana with 67 samples.

Results

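The nuclear RNA of Arabidopsis thaliana sperm held counts on 102 transposable element (TE) rows that were at least 2 times as high, on average, as in the vegetative nucleus of the same pollen, once the 5 most abundant such rows were left out. They were drawn from 31189 TE rows in a table of 60886 features by 3 steps applied to the deposited values. A row was kept if its mean count over the 12 sperm libraries was at least 10, which 278 rows passed. It was kept if its mean CPM over these libraries was at least 2 times that over the 15 vegetative libraries, which 107 rows passed. The 5 rows with the highest mean sperm count were then removed. CPM is counts per 1000000 counts of the library. It is not corrected for the length of a row, so a higher CPM of 1 row than of another is a level in the library and not a level per length.

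Transposable elements are stretches of DNA that can copy or move themselves within a genome. Plants hold them silent with DNA methylation and repressive histone marks, and small RNAs bound by ARGONAUTE proteins guide part of that methylation. A pollen grain holds a pair of sperm cells inside a vegetative cell, and the vegetative nucleus is known for its open chromatin and loss of TE silencing, whereas sperm chromatin is compact. AGO5 and AGO9 encode ARGONAUTE proteins expressed in reproductive tissue and in the shoot meristem.

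The series compared an ago5 mutant, an ago9 mutant, a line labelled ago59 and the wild type (wt), all in the ecotype Col-0. The name ago59 is read as carrying both mutations, and the labels name no alleles. Sperm and vegetative libraries came from pollen of plants of 35 d, each made from 2 ng of RNA with Smart-seq2, with 3 sperm libraries per genotype and 3 ago5, 4 ago9, 4 ago59 and 4 wt vegetative libraries. Seedling libraries came from shoot apices harvested at 7 d under days of 16 h of light, each made from 100 sorted nuclei with Smart-seq3. Nuclei with the mCherry reporter form the stem-cell group, with 8 ago5, 7 ago9, 7 ago59 and 5 wt libraries, and those sorted on DAPI, a DNA stain, form the non-stem group, with 3 ago5, 4 ago9, 3 ago59 and 3 wt libraries. The labels do not name the promoter of the reporter. They also do not say whether libraries of a group came from separate plants, so p-values measure the spread between libraries, which may be technical.

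Sperm libraries held 7.16 to 9.49 M counts (M for 1000000), vegetative libraries 7.69 to 10.19 M, stem-cell libraries 1.41 to 5.75 M and non-stem libraries 2.14 to 6.24 M. In sperm AGO5 stood at 2.30 ± 1.09 CPM in ago5, 37.6 ± 4.95 in ago9, 3.03 ± 0.814 in ago59 and 41.4 ± 7.51 in wt (SD, n = 3 each). AGO9 in sperm stood at 829.8 ± 87.9 CPM in ago5, 36.9 ± 9.99 in ago9, 46.7 ± 13.5 in ago59 and 743.1 ± 35.0 in wt (SD, n = 3 each). The sperm factor DUO1 averaged 53.2 CPM in sperm and 0.559 CPM in vegetative nuclei, while the vegetative pectin methylesterase VGD1 averaged 7487 CPM in sperm and 29436 CPM in vegetative nuclei. Summed over the list of 9 sperm markers, sperm libraries held 8232 to 14411 CPM and vegetative libraries 64.3 to 139.9 CPM. The sperm marker GEX2 was near 0 in sperm, with a mean of 0.117 CPM. The stem-cell marker CLV3 averaged 22.9 CPM in stem-cell nuclei and 0.141 CPM in non-stem nuclei. In stem-cell nuclei AGO5 ran from 1.81 to 35.1 CPM in the libraries labelled ago5, 0.692 to 16.6 CPM in ago59 and 3.78 to 32.3 CPM in wt. AGO9 in these nuclei ran from 0 to 42.8 CPM in ago9, 0 to 26.3 CPM in ago59 and 35.7 to 139.0 CPM in wt, so among these checks only AGO9 in ago59 did not overlap wt. In non-stem nuclei AGO5 reached 12.3 CPM in an ago59 library and at most 0.321 CPM in wt. Neither gene sets every mutant seedling library apart from wt, and the genotypes of seedling libraries rest on their labels.

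The level of the TE rows spanned a wide range. Their mean sperm level ran between 1.19 and 763.9 CPM with a median of 8.37 CPM, and 46 of the 102 rows reached a mean of 10 CPM. Summed over the rows, sperm libraries averaged 3613 CPM and vegetative libraries 183.6 CPM. The 10 highest rows made up 63.4% of the sperm sum, and 1 row, AT5TE01500, made up 21.1% of it. The rows took 1.83% to 3.50% of the TE counts of a sperm library, since the 5 rows left out took nearly all the rest.

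AT5TE01500 was the highest row in sperm. Its values were 790, 586 and 930 CPM in the 3 ago5 libraries, 632, 575 and 765 CPM in ago9, 1077, 466.5 and 875 CPM in ago59, and 667, 580 and 1221 CPM in wt. The 4 genotypes overlapped, with a wt library highest and an ago59 library lowest. It averaged 13.3 CPM in vegetative nuclei.

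AT1TE60400 followed with a mean of 324.3 CPM in sperm, against 5.00 CPM in vegetative nuclei. Its sperm values were 325, 370 and 414 CPM in ago5, 274, 262 and 322 CPM in ago9, 346, 258 and 521 CPM in ago59, and 228, 249 and 323 CPM in wt. The lowest ago5 value lay just above the highest wt one, while ago9 and ago59 overlapped wt. AT4TE51005 differed from the other rows in keeping a high vegetative level: its mean was 284.3 CPM in sperm and 66.3 CPM in vegetative nuclei. It was the largest vegetative contributor, with 36.1% of the vegetative sum.

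AT3TE30960 averaged 258.5 CPM in sperm with a range of 180.7 to 343.7 CPM, and 2.74 CPM in vegetative nuclei. AT3TE13060 averaged 131.6 CPM in sperm with a range of 94.3 to 166.6 CPM, and 20.7 CPM in vegetative nuclei. AT1TE41800 and AT1TE41790, whose identifiers lie close together, averaged 119.3 and 119.2 CPM in sperm. The remaining rows of the 10 highest were AT2TE08235 at 113.0 CPM, AT3TE18450 at 101.6 CPM and AT1TE57755 at 76.5 CPM. Across the 102 rows the coefficient of variation over the 12 sperm libraries ran from 15.8% to 159.3% with a median of 40.0%.

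**Figure D1:**
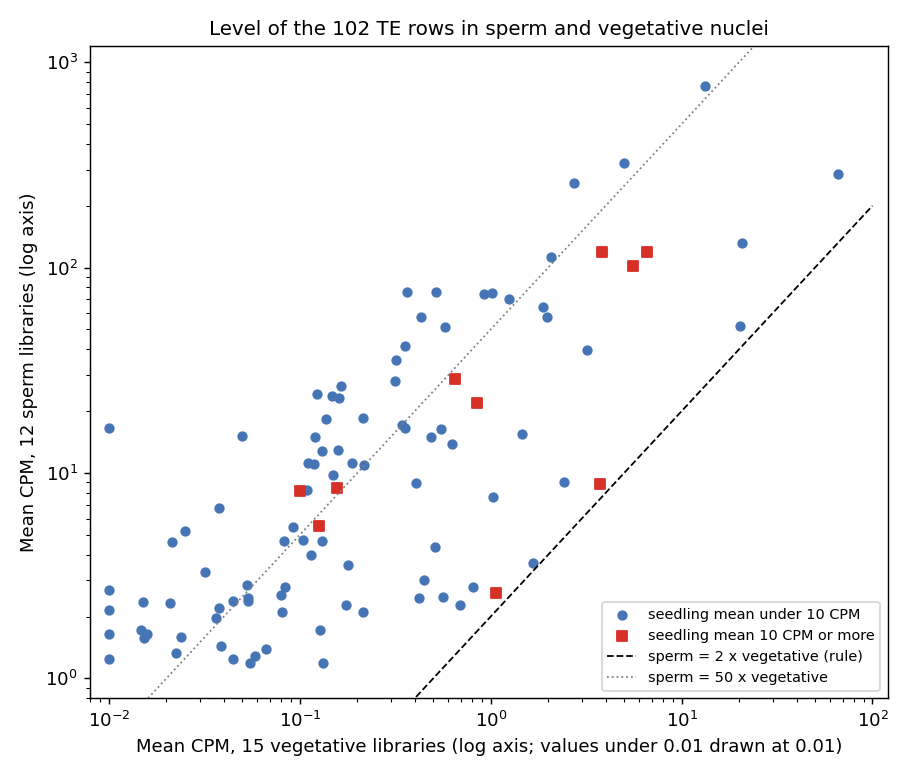
Mean CPM of each of the 102 TE rows in the 12 sperm libraries (vertical, log axis) against its mean CPM in the 15 vegetative libraries (horizontal, log axis); the dashed line marks the ratio of 2 that the rule asked for and the dotted line a ratio of 50. Points crowd along the dotted line, and squares mark the 10 rows whose mean over the 40 seedling libraries was 10 CPM or more.

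The ratio of sperm to vegetative level chose the rows and is a description only. Over the 99 rows with any vegetative count it ran from 2.20 to 304.0 with a median of 53.4. The ratio was 2 to 4 in 7 rows, 4 to 10 in 9 rows, 10 to 50 in 32 rows, 50 to 100 in 27 rows and at least 100 in 24 rows. High ratios rest on few vegetative counts, 6.61 over all 15 libraries for AT4TE50650 at 304.0, so the order of the highest rows is not read. The 3 smallest were AT2TE07460 at 2.20, AT5TE19520 at 2.37 and AT3TE05245 at 2.44.

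A further 3 rows had no count in any of the 15 vegetative libraries. Set against a floor of 3 counts over all 15 libraries together, AT4TE50680 was at least 729-fold higher in sperm, AT3TE91180 at least 118-fold and AT2TE38905 at least 54.4-fold. At the edge of the ratio, AT3TE71210 at 1.93 and AT2TE54200 at 1.98 were just outside. At the edge of the count, AT3TE51195 at a mean count of 9.25 and AT5TE94040 at 9.75 were outside and AT2TE13955 at 10.03 and AT3TE91865 at 10.08 were inside. The row with the lowest mean count among the 5 left out was AT2TE27820, with 41389 counts, against 6413 for AT5TE01500.

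In bulk libraries, fewer sperm nuclei in a sample and less RNA per nucleus cannot be told apart. One vegetative library stood apart: the ago5 vegetative replicate 4 had the highest sperm marker sum, 139.9 CPM, and also the highest sum over the TE rows among vegetative libraries, 260.8 CPM. The other 14 vegetative libraries held 140.6 to 228.0 CPM. Even its sum was far below that of any sperm library, the lowest of which held 2773 CPM.

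The numbers in the identifiers put 17, 22, 28, 16 and 19 of the rows on chromosomes 1 to 5, or 16.7%, 21.6%, 27.5%, 15.7% and 18.6% of them. The shares among all TE rows were 22.9%, 19.1%, 20.7%, 15.9% and 21.4%. The 278 TE rows past the count minimum, a nearer background, numbered 53, 47, 63, 51 and 64 on these chromosomes. Of the 102 rows, 26 fell into 12 runs of identifiers that follow each other in the list of TE rows, the longest of 3 rows. Such neighbours formed 14 pairs, and 8 of these had a Pearson correlation over 0.5 in log2(CPM + 0.5) across the 12 sperm libraries, given as a description, since the libraries share their depth and scaling. The pair AT1TE57750 and AT1TE57755 had the highest, 0.87, with the first at 0.320 to 0.530 times the CPM of the second in every library. AT1TE64390 and AT1TE64430, also neighbours, had a correlation of -0.01. Only AT2TE84975 and AT2TE84985 stood next to a row of the 5 left out, AT2TE84980, and their correlations with it were -0.02 and -0.03.

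The counts of these rows were often fractional, which happens when reads are divided among features that share sequence. In the median TE row of the 102, 91.7% of the 12 sperm values were not whole, against 66.7% in the 171 TE rows that passed the count minimum alone and 0% in the 8417 gene rows that passed it. All 12 values were whole in 28 of the rows. Every row called higher in a mutant in sperm below had at least 91.7% of its 12 sperm values not whole. Among the rows called lower, this share was 100% in AT1TE41800 and AT2TE75650. It was 0% in AT5TE29800, AT1TE41790 and AT1TE64390. A level of a row with fractional values may belong in part to a near-identical copy elsewhere. The part of this division in the results below was not tested.

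The ARGONAUTE mutants were compared with wt in sperm to ask whether these rows changed when AGO5, AGO9 or both were lost. All 102 rows entered the tests, 12 of them were called in at least 1 mutant and 90 in none. The 3 comparisons share the same 3 wt libraries. The sum over the rows was 3815, 3567 and 3872 CPM in ago5, 2773, 3191 and 3071 CPM in ago9, 4654, 3526 and 3825 CPM in ago59, and 3162, 3305 and 4601 CPM in wt. The sums of all 3 mutants overlapped or lay close to those of wt, except that 2 ago9 libraries lay below the lowest wt library. These sums are in CPM, without TMM scaling. In ago9 the CPM of 13.2% of all features lay below wt without overlap, against 2.49% above.

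**Figure D2:**
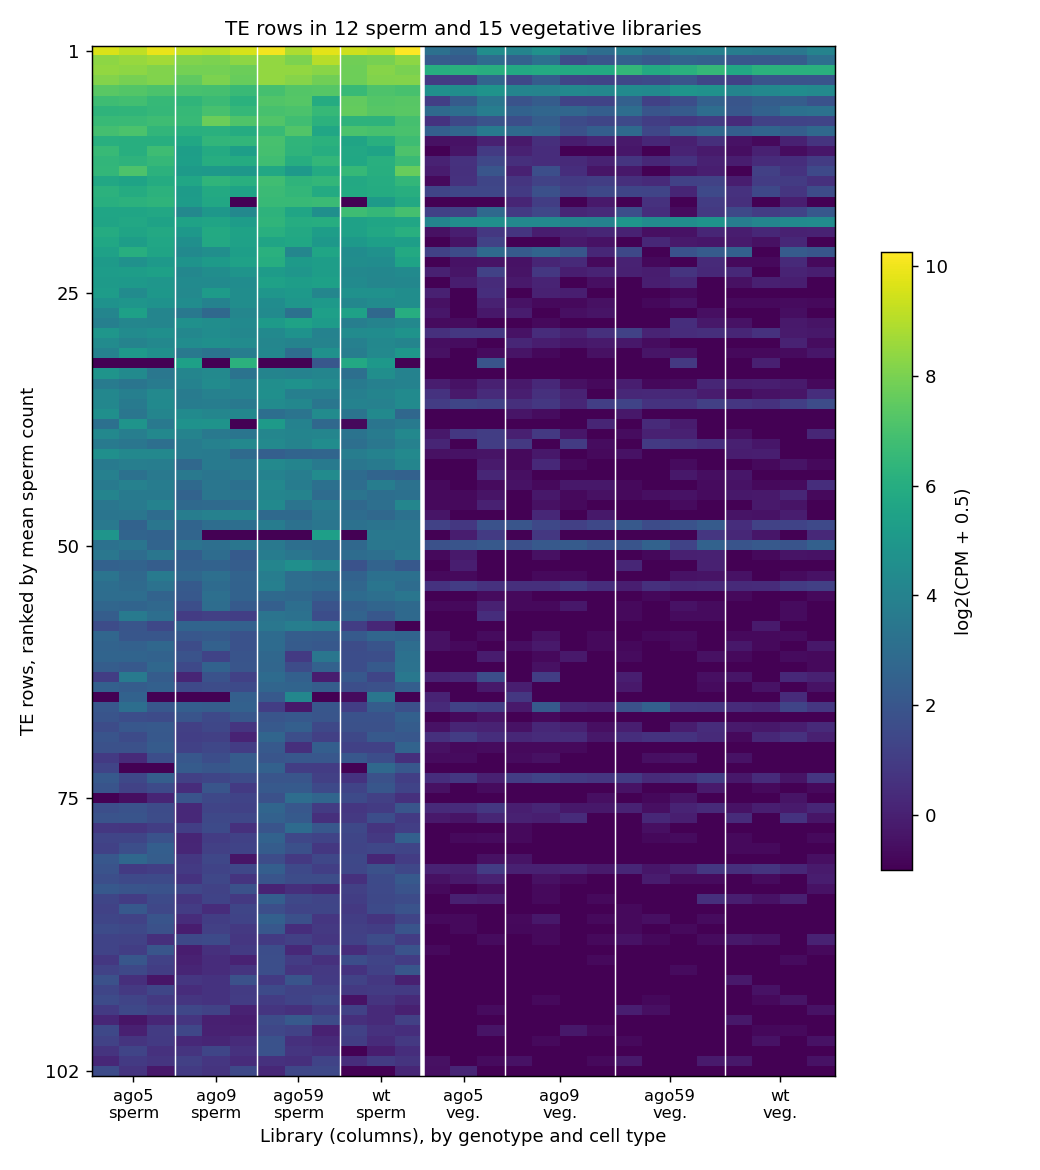
Level of the 102 TE rows as log2(CPM + 0.5), 1 row per line ranked by mean sperm count, in the 12 sperm libraries (left block) and 15 vegetative libraries (right block) grouped by genotype. Most rows are bright in all sperm libraries and dark in vegetative ones, and 8 rows that reach at least 5 CPM in some sperm library have a count under 0.5 in 1 to 7 others.

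In ago5 sperm 2 rows fell and none rose, at a Benjamini-Hochberg adjusted p under 0.05 in edgeR's quasi-likelihood test over 9623 features. Over all features, 3 were called, or 0.0312%, with 0% higher and 0.0312% lower, and the third was AGO5 itself. The median log2 change of the 102 rows was 0.11, against 0.00 over all features, with 60 rows positive and 42 negative. At an unadjusted p under 0.05, 18 of the rows passed. The share of all features at that unadjusted threshold is not given here. This count and the later ones at an unadjusted p therefore have no background to be read against. The CPM of the 3 ago5 libraries did not overlap that of the 3 wt libraries in 16 rows, 11 higher and 5 lower, against 6.64% of all features, 4.68% higher and 1.96% lower.

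In ago9 sperm 5 rows rose and 4 fell, or 8.82% of the 102, against 3.37% of all features called, 2.06% higher and 1.31% lower. The median log2 change was -0.07 in the rows and 0.02 over all features, with 47 positive and 55 negative, and 25 rows passed an unadjusted p under 0.05. CPM did not overlap in 25 rows, 9 higher and 16 lower, against 15.7% of all features, 2.49% higher and 13.2% lower. The list of 9 vegetative markers summed to 10286 to 11828 CPM in ago9 sperm libraries. In wt sperm libraries it summed to 7026 to 7985 CPM, with no overlap. Most of that sum was 1 gene, VGD1, at 9619 to 10768 CPM in ago9 and 6516 to 7074 CPM in wt. Of the 9 markers, 8 were tested. One of them, ROP1, a GTPase of pollen tube growth, rose by 0.62 ± 0.16 on the log2 scale (SE, edgeR adjusted p 0.0386). None of the 8 sperm markers tested was called. The part of vegetative RNA in the ago9 results was not tested.

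In ago59 sperm 4 rows rose and 2 fell, or 5.88% of the 102, against 0.145% of all features. Those were 14 in number, 0.0727% higher and 0.0727% lower, and included AGO5 and AGO9. The median log2 change was 0.23 in the rows and 0.00 over all features, with 71 rows positive and 31 negative, and 31 rows passed an unadjusted p under 0.05. CPM did not overlap in 24 rows, 18 higher and 6 lower, against 5.09% of all features, 3.17% higher and 1.92% lower. The vegetative marker sum in ago59 sperm, 6523 to 7352 CPM, overlapped that of wt.

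AT5TE29800 was the only row called in all 3 mutants, each time lower. Its values were 49.3, 49.3 and 53.5 CPM in ago5, 18.4, 30.5 and 18.4 CPM in ago9, 76.7, 49.1 and 24.0 CPM in ago59, and 108, 91.1 and 122 CPM in wt. All 9 mutant libraries lay below all 3 wt libraries, with ago9 lowest and ago59 the most scattered. The log2 change was -1.15 ± 0.20 in ago5, -2.09 ± 0.21 in ago9 and -1.21 ± 0.20 in ago59 (SE), with edgeR adjusted p of 0.0446, 2.66e-05 and 0.00705. All 12 sperm values of this row were whole counts.

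AT1TE41800 fell in ago5 and in ago9. It had 80.1, 82.8 and 89.7 CPM in ago5, 92.2, 127 and 88.6 CPM in ago9, 126, 132 and 92.6 CPM in ago59, and 194, 161 and 165 CPM in wt. Every mutant library was lower than every wt library. Its log2 change was -1.14 ± 0.16 in ago5 (edgeR adjusted p 0.00418), -0.61 ± 0.16 in ago9 (0.0423) and -0.65 ± 0.16 in ago59, which was not called (0.201).

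Its near neighbour AT1TE41790 fell in ago9 alone among the calls. It had 108, 113 and 92.5 CPM in ago5, 83.0, 100.8 and 71.5 CPM in ago9, 145, 155 and 60.2 CPM in ago59, and 188, 151 and 163 CPM in wt. The ago5 and ago9 libraries lay below wt and the ago59 ones overlapped it. Its log2 change was -0.81 ± 0.21 in ago9 (edgeR adjusted p 0.0423), with -0.77 ± 0.21 in ago5 (0.937) and -0.60 ± 0.21 in ago59 (0.479) not called. Whether the effect differed between the mutants was not tested for any row. The sperm values of AT1TE41790 were all whole and those of AT1TE41800 all fractional.

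AT2TE75650 fell in ago9, with 34.7, 33.5 and 30.6 CPM in ago9, against 93.9, 65.9 and 201 CPM in wt. The ago9 libraries were tight and the wt libraries spread over a range of more than 100 CPM, without overlap. The log2 change was -1.60 ± 0.33 (SE, edgeR adjusted p 0.0200). The row had 88.1, 140 and 75.6 CPM in ago5 and 53.1, 32.3 and 58.6 CPM in ago59, where it was not called. AT1TE64390 fell in ago59, with 4.72, 5.70 and 5.81 CPM in ago59 and 13.2, 15.3 and 19.3 CPM in wt. These did not overlap, at a log2 change of -1.56 ± 0.24 (SE, edgeR adjusted p 0.00446).

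Among the called rows, the largest fitted rises were in AT2TE00110 and AT2TE00075, 2 rows with nearby identifiers on chromosome 2. AT2TE00110 had 2.59, 3.40 and 2.20 CPM in ago5, 5.71, 5.72 and 5.14 CPM in ago9, 10.6, 13.6 and 11.3 CPM in ago59, and 1.53, 0.685 and 0 CPM in wt. All mutant libraries lay above wt, and the 3 mutants did not overlap each other, ago59 being highest. On the log2 scale it rose by 3.03 ± 0.53 in ago9 and 3.90 ± 0.51 in ago59 (SE), with edgeR adjusted p of 0.0109 and 0.000568. Because 1 wt library held no count of this row, the size of the fitted change depends on the prior count.

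AT2TE00075 rose in ago59 only among the calls. It had 5.20, 5.44 and 4.46 CPM in ago5, 5.12, 5.30 and 4.56 CPM in ago9, 17.0, 23.7 and 16.3 CPM in ago59, and 3.09, 5.52 and 3.83 CPM in wt. The ago59 libraries stood clear of the other 9, which overlapped. The log2 change in ago59 was 2.17 ± 0.25 (SE, edgeR adjusted p 0.000115).

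AT1TE67645 rose in ago9 and in ago59. It had 13.8, 17.6 and 17.0 CPM in ago5, 24.8, 22.5 and 19.9 CPM in ago9, 34.6, 44.1 and 35.6 CPM in ago59, and 13.5, 16.0 and 18.8 CPM in wt. The ago5 libraries overlapped wt, the ago9 ones lay just above it, and the ago59 ones lay above both. The row rose by 0.70 ± 0.19 in ago9 and 1.23 ± 0.19 in ago59 on the log2 scale (SE), with edgeR adjusted p of 0.0497 and 0.00373.

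AT4TE15590 rose in ago59, with 34.7, 32.6 and 29.3 CPM in ago5, 20.7, 20.1 and 21.7 CPM in ago9, 43.2, 38.2 and 41.3 CPM in ago59, and 20.5, 17.6 and 17.8 CPM in wt. The ago59 and ago5 libraries lay above all wt ones, and ago9 overlapped wt. The log2 change was 1.09 ± 0.19 in ago59 (SE, edgeR adjusted p 0.0144) and 0.70 ± 0.19 in ago5, which was not called (0.937).

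The other 3 rises were in ago9. AT2TE08235 had 95.4, 210 and 140 CPM in ago9 and 76.9, 77.3 and 122 CPM in wt, and these overlapped although the row was called, at a log2 change of 0.86 ± 0.16 (SE, edgeR adjusted p 0.0142). AT2TE17875 had 13.3, 14.9 and 15.2 CPM in ago9 and 7.27, 6.50 and 8.75 CPM in wt, without overlap, at 1.14 ± 0.27 (SE, edgeR adjusted p 0.0291). AT4TE08440 had 22.0, 23.7 and 21.2 CPM in ago9 and 14.6, 18.5 and 16.2 CPM in wt, without overlap, at 0.63 ± 0.17 (SE, edgeR adjusted p 0.0489). The ago9 calls of AT4TE08440 and AT1TE67645 were lost with RLE size factors in place of TMM (edgeR adjusted p 0.0543 and 0.0565).

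**Figure D3:**
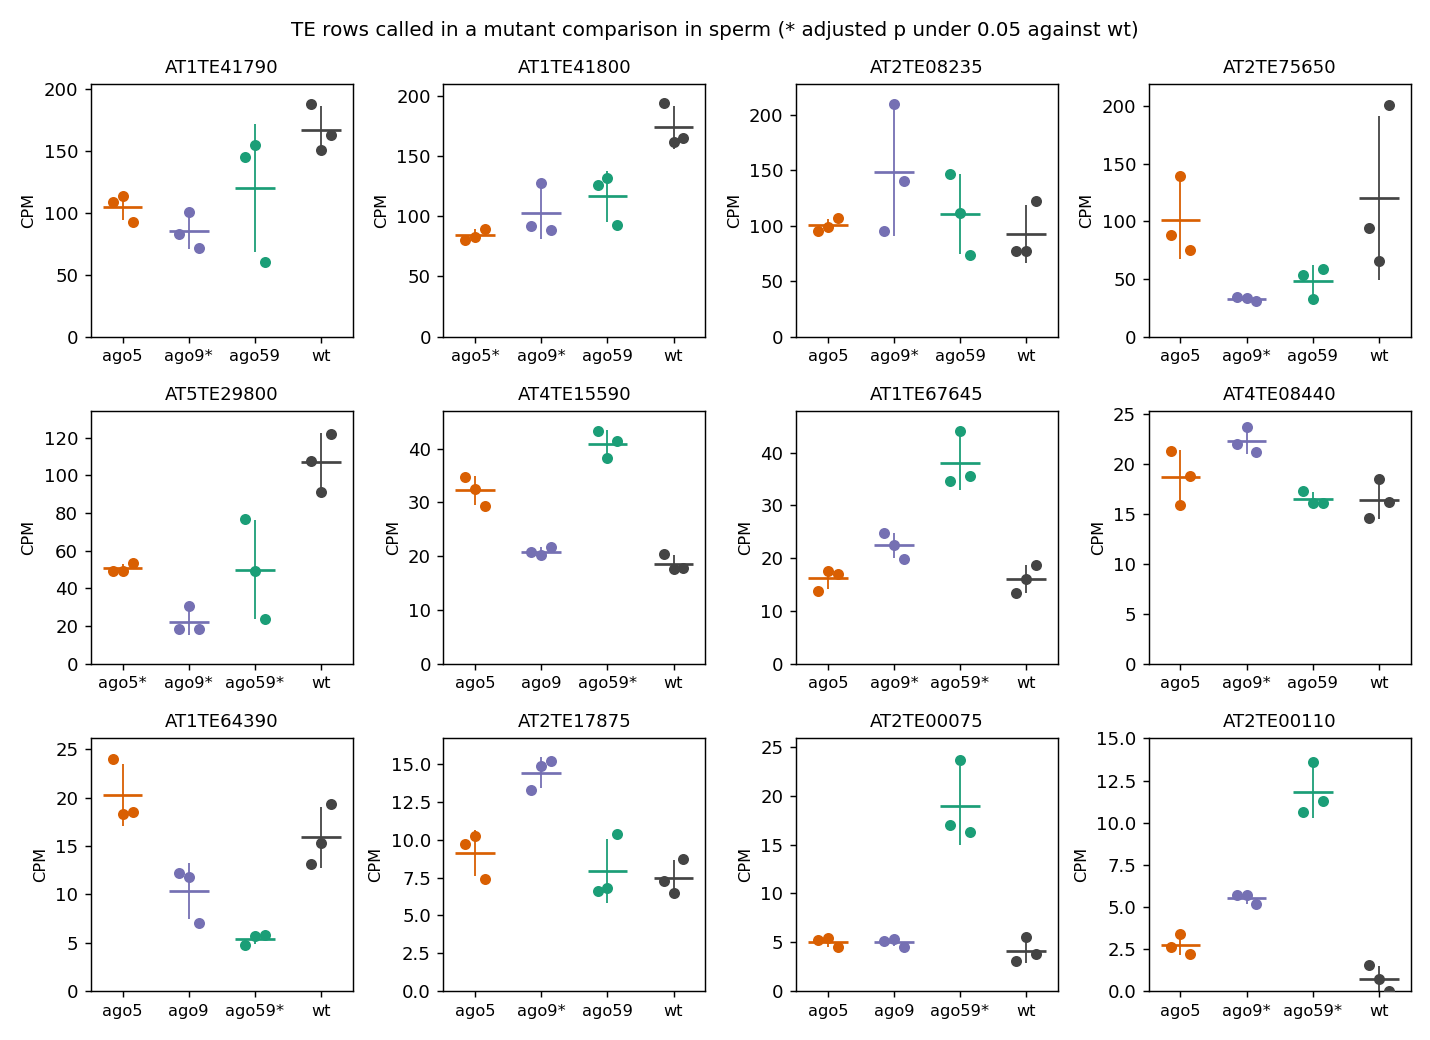
CPM in each of the 3 sperm libraries per genotype (points) for the 12 TE rows called in at least 1 mutant, with the mean (bar) and SD (line); an asterisk marks a genotype with an edgeR adjusted p under 0.05 against wt. All 9 mutant libraries of AT5TE29800 and of AT1TE41800 lie below the wt libraries, and the ago59 libraries of AT2TE00075 stand alone at 16.3 to 23.7 CPM.

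The calls differed in how far they rested on single libraries. In ago5 the count of 2 rows became 0 without ago5 replicate 1 or 3, 1 without ago5 replicate 2, wt replicate 1 or wt replicate 3, and stayed 2 without wt replicate 2. In ago9 the count of 9 became 2 without ago9 replicate 1, ago9 replicate 3 or wt replicate 1, 3 without ago9 replicate 2, and 4 without wt replicate 2 or 3. The ago9 calls of AT5TE29800 held in all 6 removals, and AT2TE00110 was lost only without ago9 replicate 1, at an edgeR adjusted p of 0.0530. In ago59 the count of 6 ran from 5 to 7. Its AT5TE29800 was lost without ago59 replicate 2 (edgeR adjusted p 0.0628) or wt replicate 1 (0.0555), and AT4TE15590 without ago59 replicate 3 (0.105), wt replicate 2 (0.126) or wt replicate 3 (0.162).

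The 5 highest rows in sperm were called in no mutant. For AT5TE01500 the log2 change was -0.14 ± 0.27 in ago5, -0.07 ± 0.27 in ago9 and -0.01 ± 0.27 in ago59 (SE, edgeR adjusted p 0.993, 0.933 and 0.998). AT1TE60400 had log2 changes of 0.41 ± 0.26, 0.33 ± 0.26 and 0.55 ± 0.26 in the same 3 mutants, with edgeR adjusted p of 0.993, 0.573 and 0.635. A p that misses the threshold leaves changes of this size possible.

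Among the rows not called, AT4TE42950, named after its values were seen, had non-overlapping CPM in 2 mutants. It had 37.0, 38.0 and 41.8 CPM in ago5, 17.8, 22.4 and 27.9 CPM in ago9, 35.3, 29.5 and 38.5 CPM in ago59, and 18.4, 18.1 and 20.7 CPM in wt. The ago5 and ago59 libraries lay above wt and the ago9 ones overlapped it. The log2 change of 0.95 ± 0.20 in ago5 and 0.84 ± 0.20 in ago59 (SE) did not pass, at edgeR adjusted p of 0.201 and 0.166.

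Some rows were at 0 in part of the sperm libraries and well above it in others. There were 8 rows with a count under 0.5 in at least 1 sperm library and at least 5 CPM in another: AT5TE37380, AT5TE37400, AT1TE68325, AT2TE84975, AT2TE00110, AT2TE12870, AT3TE91180 and AT4TE00230. AT5TE37380 and AT5TE37400 were noticed after their values were seen, and no test was made of the pair. AT5TE37380 had 67.8, 73.5 and 79.7 CPM in ago5, 36.6, 52.5 and 0 CPM in ago9, 96.2, 94.0 and 103 CPM in ago59, and 0, 34.6 and 54.1 CPM in wt. AT5TE37400 had 0 CPM in all 3 ago5 libraries, 41.9, 0 and 73.8 CPM in ago9, 0, 0 and 3.63 CPM in ago59, and 55.0, 31.3 and 0 CPM in wt.

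Libraries without the first row held the second, and libraries without the second held the first. Their sum was steadier, at 73.7 ± 5.93 CPM in ago5, 68.3 ± 13.9 in ago9, 98.9 ± 6.73 in ago59 and 58.3 ± 6.58 in wt (SD, n = 3 each). Neither row was called in a mutant in the main fits, and AT5TE37400 had an edgeR adjusted p of 0.937 in ago5 sperm in spite of its 3 zeros. Without the low-count filter, both were called for a mutant effect in sperm minus that in vegetative nuclei. AT5TE37400 was called in ago5 (log2 -14.1, edgeR adjusted p 2.76e-39) and ago59 (-5.87, 1.21e-07). AT5TE37380 was called in ago5 (6.02, edgeR adjusted p 0.000897). In 10 libraries the values of AT5TE37380 were not whole.

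**Figure D4:**
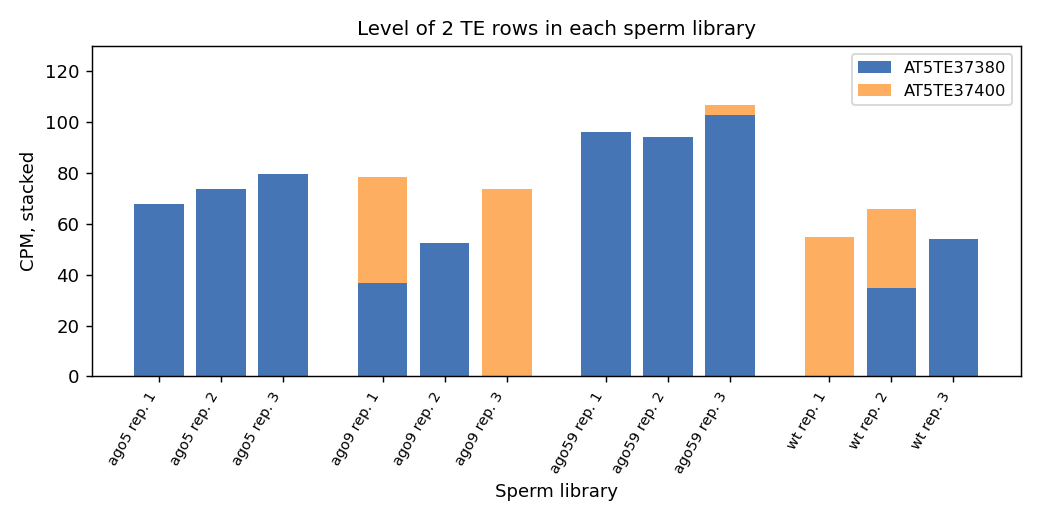
CPM of AT5TE37380 (lower part of each bar) and AT5TE37400 (upper part) in each of the 12 sperm libraries. The 3 ago5 libraries, ago9 replicate 2, ago59 replicates 1 and 2 and wt replicate 3 hold AT5TE37380 alone. The libraries ago9 replicate 3 and wt replicate 1 hold AT5TE37400 alone. The stacked height runs from 52.5 to 106.6 CPM.

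Among the listed silencing genes in sperm, AGO5 and AGO9 were the only ones called. Of 17 listed genes of small RNA production and RNA-directed DNA methylation, 7 were expressed highly enough to test and 0 were called in any of the 3 mutants with edgeR's adjusted p under 0.05. Of 9 ARGONAUTE genes 4 were tested, and the calls were AGO5 lower in ago5 (log2 -4.21), AGO9 lower in ago9 (-4.17) and both lower in ago59 (-3.79 and -4.07). Of 17 genes for DNA methylation, histone marks and chromatin remodelling 11 were tested and 0 were called in any mutant. MET1, the maintenance DNA methyltransferase, averaged 857.8 CPM in sperm and 12.4 CPM in vegetative nuclei, and DDM1, a chromatin remodeller needed for TE silencing, 716.9 CPM in sperm and 65.5 CPM in vegetative nuclei.

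In vegetative nuclei only 27 of the 102 rows had enough counts to test, and none was called in any mutant by edgeR or by DESeq2, which was run as an alternative. At an unadjusted p under 0.05, 0 passed in ago5, 3 in ago9 and 5 in ago59. Of all features, 0.0111%, 0.1% and 1.69% were called in ago5, ago9 and ago59, at an adjusted p under 0.05, which is a different threshold. The sum over the rows was 201 ± 52.7 CPM in ago5 (SD, n = 3), 166 ± 28.1 in ago9, 196 ± 32.6 in ago59 and 175 ± 24.0 in wt (SD, n = 4 each), and the groups overlapped. Leaving out the ago5 vegetative replicate 4 left the count of calls in ago5 at 0.

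AT5TE29800, lower in all 3 mutants in sperm, stood at 3.45 ± 2.88 CPM in ago5 (SD, n = 3), 1.23 ± 0.675 in ago9, 1.26 ± 1.096 in ago59 and 2.36 ± 0.987 in wt vegetative nuclei (SD, n = 4 each). These values overlapped, and its log2 changes of 0.33 ± 0.51, -1.02 ± 0.53 and -1.22 ± 0.53 (SE) had edgeR adjusted p of 0.858, 0.874 and 0.200. With no filter on low counts it was called lower in ago59 (edgeR adjusted p 0.0333), as was AT2TE75650 (0.00191). Whether a mutant effect differed between sperm and vegetative nuclei was tested directly. Over 12025 features, 0 of the 102 rows were called in ago5, ago9 or ago59 by edgeR, with 12, 6 and 10 at an unadjusted p under 0.05, and DESeq2 called 1, 0 and 0. Only 27 of the 102 rows had enough counts to test in vegetative nuclei alone, so a count of 0 leaves most of them undecided. Of 9 listed ARGONAUTE genes 4 entered this test and edgeR called 0, although AGO5 and AGO9 fell in sperm. Of all features 0%, 0% and 0.00832% were called. The nearest to a call was AT1TE41800 in ago5, whose change in sperm minus that in vegetative nuclei was -1.43 ± 0.28 on the log2 scale (SE, edgeR adjusted p 0.192). This is the row that DESeq2 called (adjusted p 0.0117), and edgeR also called it once wt sperm replicate 3 was left out (adjusted p 0.0339). Without the low-count filter edgeR called it too (adjusted p 4.69e-05). In that refit AT5TE29800 was also called for the ago5 difference (log2 -1.54, edgeR adjusted p 0.00455).

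The seedling libraries were no part of the rule. Summed over the 102 rows, stem-cell libraries averaged 748.7 CPM and non-stem libraries 588.2 CPM. AT1TE41800 and AT1TE41790 made up 38.5% and 23.0% of the stem-cell sum and 42.1% and 20.8% of the non-stem sum. Only 10 rows reached a mean of 10 CPM over the 40 seedling libraries, and 17 had no count in any of them. The seedling and pollen libraries were made with different protocols and were not tested against each other. Side by side, the mean CPM was higher in stem-cell nuclei than in sperm for 15 of the rows, AT1TE41800 among them at 287.9 CPM in stem-cell nuclei and 119.3 CPM in sperm.

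Stem-cell nuclei were compared with non-stem nuclei across the 4 genotypes. Of 34 rows with enough counts, 4 rose in stem-cell nuclei and 0 fell, where 6.93% of all 20753 features were called, 4.06% higher and 2.87% lower. The log2 difference was positive in 30 rows and negative in 4, with a median of 0.78, against 0.06 over all features. Of the 34, 10 passed an unadjusted p under 0.05. The 4 meristem markers all rose and the 3 leaf markers all fell in stem-cell nuclei. Of 9 sperm markers 4 were tested, with a median log2 difference of 1.60, and 1 was called higher, GEX2 (log2 3.92 ± 1.23, SE, edgeR adjusted p 0.0437). The sum over the 9 was low and overlapped, at 0.908 to 25.6 CPM in stem-cell nuclei and 0 to 17.3 CPM in non-stem nuclei. The part of these markers in the result was not tested.

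AT3TE88640 ran from 0.701 to 52.6 CPM with a median of 17.6 in stem-cell nuclei and from 0.406 to 17.5 CPM with a median of 5.25 in non-stem nuclei. The 2 ranges overlapped, at a log2 difference of 1.57 ± 0.37 (SE, edgeR adjusted p 0.00403). AT1TE42900 ran from 4.29 to 68.2 CPM with a median of 27.0 in stem-cell nuclei and from 3.37 to 41.6 CPM with a median of 15.8 in non-stem nuclei, at 0.95 ± 0.26 (SE, edgeR adjusted p 0.0194). That call was lost without wt non-stem replicate 3 (edgeR adjusted p 0.0516) and with replicate number added to the fit (0.199).

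AT1TE41790 ran from 106.1 to 338.2 CPM with a median of 157.8 in stem-cell nuclei and from 70.2 to 212.4 CPM with a median of 122.2 in non-stem nuclei. The log2 difference was 0.47 ± 0.13 (SE, edgeR adjusted p 0.0197), and the call was lost without ago59 non-stem replicate 2 (0.0556) or wt non-stem replicate 2 (0.0576). AT1TE41800, the other abundant row, did not pass (edgeR adjusted p 0.168). AT4TE51005 had a median of 0.592 CPM and a highest value of 8.09 CPM in stem-cell nuclei and a median of 0 with a highest value of 1.41 CPM in non-stem nuclei. Its call, at 2.77 ± 0.90 on the log2 scale (SE, edgeR adjusted p 0.0493), was lost in 26 of 42 refits and rests on few counts.

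The mutants were also compared with wt in each kind of seedling nucleus. In stem-cell nuclei 25 rows could be tested and in non-stem nuclei 19, and edgeR and DESeq2 called none in any mutant. At an unadjusted p under 0.05, edgeR gave 3, 1 and 0 rows in ago5, ago9 and ago59 stem-cell nuclei and 2, 2 and 1 rows in non-stem nuclei. At an adjusted p under 0.05, a different threshold, 1.33%, 0.671% and 2.94% of all features were called in stem-cell nuclei. In non-stem nuclei 0.382%, 0.245% and 1.2% of all features were called.

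The sums over the 102 rows nevertheless stood higher in the mutants, as a description with no test. They are in CPM, without the TMM scaling that the log2 changes follow, and that scaling moves mutants against wt. AT1TE41800 averaged 275.5 CPM in ago5 and 243.3 CPM in wt stem-cell nuclei, where its fitted log2 change was 0.03 ± 0.19 (SE). The part of scaling in the sums was not tested. In stem-cell nuclei they ran from 703.8 to 912.3 CPM with a median of 766.9 in ago5, from 655.0 to 852.4 CPM with a median of 739.2 in ago9, from 750.1 to 914.3 CPM with a median of 818.0 in ago59, and from 546.7 to 668.2 CPM with a median of 602.5 in wt. The ago5 and ago59 libraries lay above all wt libraries, and ago9 overlapped wt at its low end. In non-stem nuclei the sums were 552.7 to 634.4 CPM in ago5, 588.0 to 639.2 CPM in ago9, 609.9 to 746.8 CPM in ago59 and 428.4 to 497.9 CPM in wt, with all mutant libraries above all wt ones. The 3 leaf markers moved with genotype too: their summed level in stem-cell nuclei was 15244 to 19187 CPM in ago5, 15144 to 19328 CPM in ago9, 16677 to 19292 CPM in ago59 and 25050 to 29069 CPM in wt, and in non-stem nuclei 21371 to 22841 CPM in ago5, 17830 to 20750 CPM in ago9, 17862 to 19352 CPM in ago59 and 32379 to 35513 CPM in wt. Of the 3, RBCS1A, a small subunit of Rubisco, fell in every mutant in both kinds of nuclei, by 1.15 to 1.68 on the log2 scale (edgeR adjusted p at most 5.49e-08). The light-harvesting genes CAB3 and LHCB1.1 went the other way, both called higher in ago5 and ago59 stem-cell nuclei (log2 0.41 to 0.78, edgeR adjusted p at most 0.00500) and LHCB1.1 in ago59 non-stem nuclei (0.45, edgeR adjusted p 0.0201). The part of these differences in the sums was not tested.

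AT1TE41800 and AT1TE41790 weigh most in those sums. AT1TE41800 had 203.9 to 240.2 CPM in ago5, 259.3 to 308.7 CPM in ago9, 267.3 to 288.7 CPM in ago59 and 159.5 to 234.1 CPM in wt non-stem nuclei, where ago9 and ago59 lay above wt and ago5 overlapped it. In stem-cell nuclei it had 197.2 to 370.5 CPM in ago5, 195.2 to 408.6 CPM in ago9, 267.4 to 398.6 CPM in ago59 and 193.4 to 316.2 CPM in wt, all overlapping wt. It was called in no mutant in either kind of nucleus (edgeR adjusted p at least 0.515). Without these 2 rows, a choice made after the values were seen, the stem-cell sum averaged 311 ± 38.1 CPM in ago5 (SD, n = 8), 303 ± 56.0 in ago9 (n = 7), 297 ± 47.8 in ago59 (n = 7) and 220 ± 22.8 in wt (n = 5). The non-stem sum without them averaged 249 ± 45.6 CPM in ago5 (SD, n = 3), 217 ± 30.9 in ago9 (n = 4), 244 ± 28.7 in ago59 (n = 3) and 163 ± 42.7 in wt (n = 3). In stem-cell nuclei only ago5 then lay above all wt libraries. There ago59 replicates 4 and 8, at 253.0 and 248.5 CPM, and ago9 replicate 3, at 249.4 CPM, lay below wt replicate 5, at 254.2 CPM. In non-stem nuclei ago5 and ago59 stayed above wt. There ago9 replicates 1 and 2, at 204.5 and 180.4 CPM, lay below wt replicate 2, at 204.7 CPM.

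**Figure D5:**
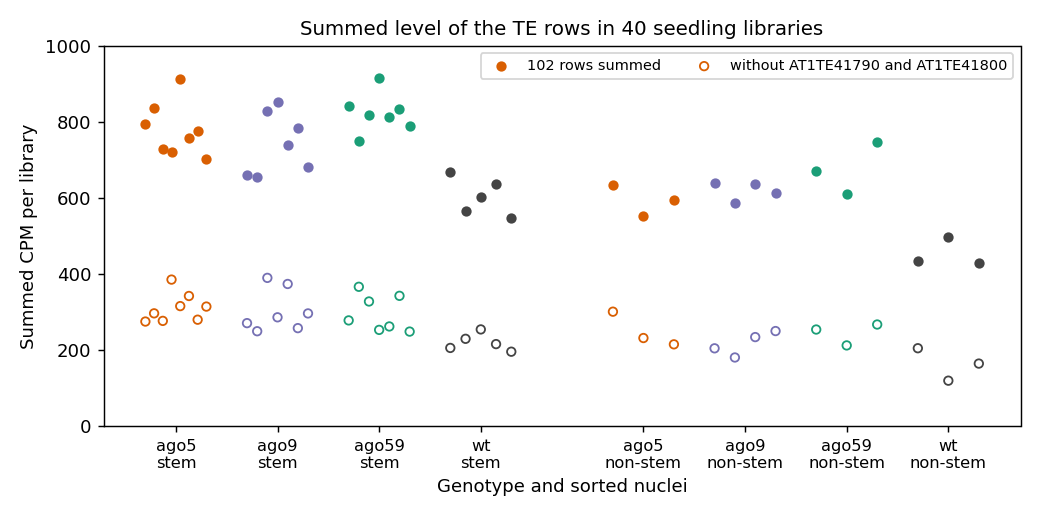
Summed CPM of the TE rows in each of the 40 seedling libraries by genotype and sorted nuclei, over all 102 rows (filled) and without AT1TE41790 and AT1TE41800 (open). Filled wt points run from 546.7 to 668.2 CPM in stem-cell nuclei and from 428.4 to 497.9 CPM in non-stem nuclei, and most mutant points lie above them.

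The next highest row in seedlings was AT5TE19520, with a mean of 34.0 CPM over the 40 libraries. In stem-cell nuclei it ran from 15.4 to 83.4 CPM with a median of 50.2 in ago5, from 32.1 to 52.7 CPM with a median of 40.1 in ago9, from 1.23 to 59.5 CPM with a median of 33.0 in ago59, and from 10.4 to 31.4 CPM with a median of 15.3 in wt. The ago9 libraries lay above all wt libraries and the others overlapped wt. Its log2 change was 1.26 ± 0.46 in ago5 and 1.01 ± 0.47 in ago9 (SE), and neither passed (edgeR adjusted p 0.222 and 0.564).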

How the data were processed

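Per the file header and the values, the authors deposited 1 table of expected counts, which are estimates and can be fractional, for 67 libraries: 7.58% of values are not whole and column totals differ. The submitters' processing notes name the build TAIR10 and DESeq2; the aligner, counter, strand handling and TE annotation are not given in the sources used here. Groups came from sample titles; the 7 wild-type pollen columns carry the number 21 in place of a genotype and were assigned by elimination, so all wt pollen values rest on that. No replicate pair agreed within sampling noise (chi-square per degree of freedom at least 4.13). Replicate numbers gave at most weak pairing of mutant with wt libraries in a cell type. Pairing between cell types was not checked.

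Expected counts were rounded and fitted on all 4 genotypes of a cell type, or on all groups of a tissue for stem against non-stem nuclei and for sperm minus vegetative effects. The fits used edgeR 4.0.16 in R 4.3.3 (TMM, filterByExpr with minimum count 10 and minimum total 15, glmQLFTest without a replicate block). A row is called at a Benjamini-Hochberg adjusted p under 0.05 over all features tested. SE is the absolute log2 change over the square root of F. Log2 changes follow TMM scaling and CPM does not. The fits were tested on simulated counts first. The alternatives tried were no low-count filter, RLE size factors, DESeq2 1.42.0, a replicate block, only the groups compared, removal of the 5 top TE rows, stricter row rules, and leaving out each library.

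Named rows are the 10 highest in sperm, the called rows, those at each threshold, the 3 largest and smallest ratios and the 3 highest in seedlings. Rows, lists and tests were chosen with earlier results of these data known. The positions, families and sequences of the TE rows were not used here.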

Additional observations from a re-analysis of the deposited data

Results flagged for a closer look

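Within groups of 4 to 10 libraries, 38 sets of values were examined for 1 library set apart from the rest. The check picked out 5 of them, and chance meets it in about 1 of 20 sets when values are normally spread. All 5 were the CPM of AT4TE51005 in seedling nuclei, where it has few counts, so that rate does not hold for them. Where all other libraries are at 0, any count is picked out. It stood at 8.09 CPM in ago5 stem-cell replicate 4, with the other 7 libraries at 0.381 to 2.94 CPM. It stood at 2.10 CPM in ago9 stem-cell replicate 5, with the others at 0 to 0.655 CPM, and at 1.41 CPM in ago9 non-stem replicate 3, with the others at 0. In ago59 stem-cell replicate 4 it stood at 7.03 CPM, with the others at 0 to 1.46 CPM. In wt stem-cell replicate 8 it stood at 4.33 CPM, with the others at 0.340 to 1.22 CPM.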

How the results depend on the processing

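The main counts of rows called in sperm were 2 in ago5, 9 in ago9 and 6 in ago59. Without the low-count filter they were 11 (5 higher, 6 lower), 19 (8 higher, 11 lower) and 17 (11 higher, 6 lower), the vegetative count in ago59 was 2 against 0, and the counts for sperm minus vegetative effects were 5 in ago5 and 2 in ago59 against 0. DESeq2 called 3, 11 and 9 rows in ago5, ago9 and ago59 sperm and 1 row for the ago5 difference between sperm and vegetative nuclei. The share of all features called under these settings is not given here. Whether the change in counts is particular to these rows was not tested, nor was its cause. Leaving out each library gave 0 to 2 rows in ago5 sperm, 2 to 4 in ago9 sperm, 5 to 7 in ago59 sperm, 3 to 5 for stem against non-stem nuclei, 0 to 1 for the ago5 sperm minus vegetative effect and 0 to 0 in every other comparison. RLE size factors, removal of the 5 top TE rows, only the groups compared, and the stricter row rules left every count within 1.5 times the main one.

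Same-numbered mutant and wt libraries of a cell type were weakly correlated: mean correlations of their deviations were at most 0.141. That highest mean was in ago5 vegetative nuclei, where 3 of 3 libraries correlated best with their own number. Whether same-numbered libraries of different cell types pair, which matters for stem against non-stem and sperm minus vegetative tests, was not checked. With the replicate block 2 rows were called for stem against non-stem nuclei, against 4, with AT1TE42900 (log2 0.84, edgeR adjusted p 0.199) and AT4TE51005 (1.96, edgeR adjusted p 0.395) lost, and 11 in ago9 sperm, against 9. Over 381 refits of the 21 calls named, 299 kept the call, 82 lost it and 0 reversed. AT1TE67645 and AT4TE08440 lost their ago9 calls with RLE size factors (edgeR adjusted p 0.0565 and 0.0543), and AT4TE08440 also without the low-count filter. The calls of AT5TE29800 in ago9, of AT2TE00075, AT2TE00110, AT1TE64390 and AT1TE67645 in ago59, and of AT3TE88640 in stem-cell nuclei were kept in all refits made. With 3 sperm libraries a group, small changes may go uncalled, and in vegetative and seedling nuclei most of these rows had too few counts to test.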

Other observations

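In the seedling comparison of stem-cell with non-stem nuclei, silencing genes were called in the same direction as the 4 TE rows. Of these row calls, AT4TE51005 was lost in 26 of 42 refits and AT1TE42900 and AT1TE41790 in 2 of 45 each. The differences are averages over the 4 genotypes, mutants included. AGO9 in stem-cell nuclei averaged 11.9 CPM in ago9 and 86.6 CPM in wt. Of 9 ARGONAUTE genes, all tested, 6 rose and 0 fell in stem-cell nuclei: AGO9 by 5.81 ± 0.69 on the log2 scale, AGO5 by 4.36 ± 0.72, AGO6 by 2.56 ± 0.81, AGO7 by 1.83 ± 0.50, AGO4 by 1.00 ± 0.13 and AGO1 by 0.44 ± 0.13 (SE). Their edgeR adjusted p ran from 6.36e-08 for AGO9 to 0.0437 for AGO6. Of 17 genes of small RNA production and RNA-directed DNA methylation, all tested, 4 rose and 0 fell, among them the chromatin remodellers CLSY3 (log2 2.86 ± 0.61, edgeR adjusted p 0.00150) and CLSY2 (4.30 ± 0.94, 0.00202). Of the 17 genes for DNA methylation, histone marks and remodelling, 16 were tested, 5 rose and 0 fell, with DDM1 at 1.82 ± 0.30 and VIM1 at 1.48 ± 0.20 (SE, edgeR adjusted p 2.71e-05 and 9.52e-07). Over all features 6.93% were called.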
